A study of Mus musculus with 24 samples.

Results

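The 33 genes described here code for the enzymes and carriers of fatty acid oxidation in mitochondria and peroxisomes, for the electron transfer flavoprotein that takes up their electrons, and for a small set of regulators and thioesterases of the pathway. They were chosen by symbol for their function, with earlier results of these data known, out of 24421 gene symbols counted in mouse adipose tissue. All 33 were present. The study sequenced total RNA from fat of C57BL/6 mice aged 2 months that were wild type (WT) or carried a point mutation in the SH2 domain of STAT5B, in males and in females. STAT5B is a transcription factor activated by growth hormone and other cytokines, and its SH2 domain binds phosphotyrosine. The mutants were STAT5B-Y665F, in which a tyrosine of that domain is a phenylalanine, and STAT5B-Y665H, in which the same tyrosine is a histidine. This gave 6 groups of 4 libraries each: WT, Y665F and Y665H females, and WT, Y665F and Y665H males. Zygosity and the fat depot are not given in the sources used here, and no label ties a library to a separate animal, so p-values measure the spread between libraries of a group. The comparisons address how each change of the tyrosine alters the expression of these genes, whether the mutants differ from each other, and whether the sexes do.

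Fatty acids enter mitochondria as carnitine esters and are then shortened in a repeating cycle of dehydrogenation, hydration, a second oxidation and thiolytic cleavage. The acyl-CoA dehydrogenases of the first step hand their electrons to the electron transfer flavoprotein, a dimer of the Etfa and Etfb products, from which the Etfdh product passes them to ubiquinone. Peroxisomes run a related cycle with their own enzymes on very long, branched and dicarboxylic chains. In white fat most fatty acids are stored or released, whereas thermogenic adipocytes and muscle fibres burn them, and PPAR receptors are known inducers of the pathway.

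Hadha and Hadhb, which code for the alpha and beta subunits of the mitochondrial trifunctional protein, lie head to head on mouse chromosome 5 (GRCm38, the assembly that mm10 names). Their RefSeq starts are 273 bases apart. The stretch between their GENCODE exons, at chr5:30155163-30155247 on the plus strand, holds none of the motifs searched. A STAT palindrome of the form TTCNNNGAA lies within the stretch chr5:30155118-30155146. It is inside the first exon of a Hadha transcript in GENCODE and upstream of both RefSeq starts. Its far end is 125 bases from the start of Hadhb and 156 bases from that of Hadha. Cpt2 carries a second match within the stretch chr4:107923751-107923819 on the minus strand. Acadvl (chr11:70015480-70015545) and Echs1 (chr7:140116477-140116534), both on the minus strand, hold AGGTCA, the core site of nuclear receptors. The sequences are RefSeq's, on GRCm38.p6, and capitals mark the match:
Between Hadha and Hadhb: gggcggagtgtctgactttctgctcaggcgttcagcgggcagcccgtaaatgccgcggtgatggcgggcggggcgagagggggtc
Hadha and Hadhb site: aaaggatgatTTCTCTGAAggtgagacta
Cpt2: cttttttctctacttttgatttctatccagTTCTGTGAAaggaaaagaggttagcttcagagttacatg
Acadvl: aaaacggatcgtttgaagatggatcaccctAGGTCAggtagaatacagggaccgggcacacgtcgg
Echs1: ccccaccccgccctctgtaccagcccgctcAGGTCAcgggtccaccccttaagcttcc

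Promoter windows from 250 bases before to 50 bases after the start were found for 28 of the 33 genes in a RefSeq table of 32851 windows, and both strands were searched. TTCNNNGAA was in 3 of the 28 (10.7%; Cpt2, Hadha and Hadhb, which share 1 site), against 8.30% of all windows. AGGTCA was in 4 of 28 (14.3%; Acadm, Echs1, Acadvl and Cpt1a), against 16.3% of all windows. The PPAR direct repeat, DR1, in which 2 copies of AGGTCA are spaced by 1 base, was in 0 of 28, against 0.0396% of all windows. Both shares for the oxidation genes were close to those of all windows, and a match of letters is a description, not a binding site.

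Each library held 21.0 M to 41.3 M counts in named genes (M, counts in units of 1e6), with a median of 34.6 M. Levels are counts per 1e6 gene counts (CPM) scaled by TMM factors over all 24 libraries. The adipocyte genes Adipoq, Lep and Plin1 were present in every library, with group means of at least 987, 622 and 1768 CPM. Other tissues were present too. In males, 8 epididymis genes summed to 1.16 to 11112 CPM in WT, 0.0523 to 992 CPM in Y665F and 1.94 to 1706 CPM in Y665H, against at most 0.674 CPM in any female library. WT male 2 held most of it, had 6283 CPM of the 12 adipocyte genes against 15548 to 18995 CPM in the other 3 WT males, and was the lowest of all 24 libraries for 17 of 32 oxidation genes. Y665F female 3 held 1381 CPM of 10 epithelial genes against 63.9 to 274 CPM in the other 11 female libraries. In bulk tissue, fewer cells of a type and less RNA per cell cannot be told apart.

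Of the 33 genes, 32 passed the filter on low counts in every comparison. The exception was Cpt1b, the muscle isoform of the outer carnitine palmitoyltransferase, which was counted at 0.0475 to 0.498 CPM and made up 0.0458 to 0.385% of the Cpt1a and Cpt1b counts. This value cannot be read as its level, because 81.4% of its exonic bases (chr15:89416405-89425863) are shared on the same strand with the read-through gene Gm44502, and reads that fit 2 genes are dropped by common counting modes. Etfb (58.2% of exonic bases shared with Gm45233 and Mir7051), Hadhb (57.5% of its 50-base windows found elsewhere, mostly in Gm13910), Acaa1a and Acaa1b (26.7% and 35.5% of windows shared with each other) and Acot1 and Acot2 (32.7% and 27.7% of windows found elsewhere) are uncertain in level for a like reason. Their fold changes compare the same gene between libraries, and reads of the copies may still enter them.

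Summed over the 33 genes, the level was 4429 to 5066 CPM in WT females, 3504 to 3855 CPM in Y665F females and 5732 to 7378 CPM in Y665H females. The 3 female ranges did not overlap. In males it was 2689 to 3951 CPM in WT, 2618 to 3710 CPM in Y665F and 3624 to 4048 CPM in Y665H, and these ranges did overlap. Y665H females had the highest group mean for 28 of 32 genes. The exceptions were Cpt1a, Acox3 and Acot1, highest in WT males, and Decr2, highest in Y665F females. Per kilobase of exon, the highest levels in WT females were those of Etfb (225 CPM per kb), Acadl (125), Etfa (124) and Hsd17b4 (118), and Etfdh was at 17.4 CPM per kb. Cpt1a was at 13.0 CPM per kb and Acad10 at 3.81 CPM per kb.

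**Figure D1:**
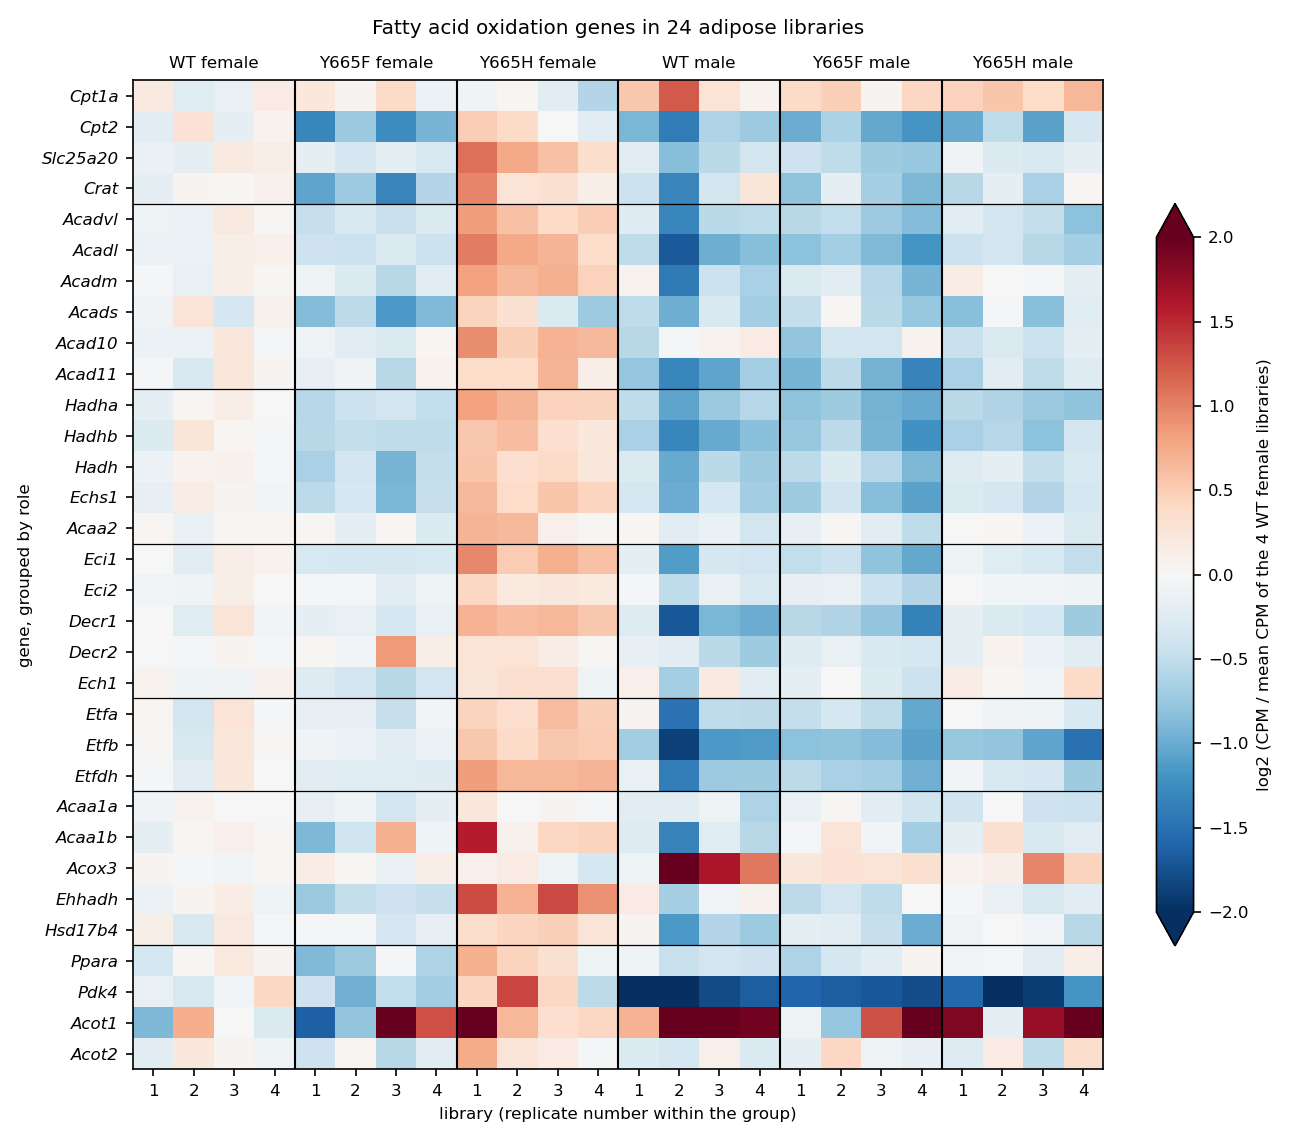
Level of the 32 tested genes (rows, grouped by role) in the 24 libraries (columns), as log2 of the CPM over the mean CPM of the 4 WT female libraries; colours saturate at an absolute value of 2. The Y665H female block is above that mean for most genes, the male blocks are mostly below it, and WT male 2 is the lowest column for 17 of the 32 genes.

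Summed levels of adipocyte, thermogenic and muscle marker genes also varied between the female groups, though few of these genes were called against WT outside the thermogenic list. The 12 adipocyte genes summed to 19521 to 23863 CPM in WT, 11218 to 19712 CPM in Y665F and 24735 to 29644 CPM in Y665H females. Of these 12 genes, all 12 were lower in Y665F than in WT, with a median log2 fold change of -0.38, and 0 were called. In Y665H against WT 7 were higher and 5 lower with a median log2 fold change of 0.06, and 1 was called in each direction, the lower one being Lep (group means of 1295 CPM in WT and 622 CPM in Y665H). Per 100 CPM of adipocyte genes, the oxidation genes were at 18.9 to 22.7 CPM in WT, 19.6 to 31.2 CPM in Y665F and 22.6 to 25.0 CPM in Y665H females. On this scale the Y665F range overlapped that of Y665H only through Y665F female 3, the epithelium-rich library (31.2 CPM), and the other 3 Y665F females (19.6 to 21.3 CPM) lay within the WT range. WT overlapped Y665H through WT female 2 (22.69 CPM) and Y665H female 3 (22.58 CPM). The 12 thermogenic genes summed to 118 to 194 CPM in WT, 53.5 to 71.3 CPM in Y665F and 122 to 343 CPM in Y665H females. Of the thermogenic genes tested, all 9 were lower in Y665F than in WT, 6 of them called. All 10 tested were higher in Y665H than in Y665F, 7 of them called. Against WT all 10 were higher in Y665H too, with 1 called and a median log2 fold change of 0.45. Ucp1, the uncoupling protein of thermogenic fat, was at 5.00 to 26.6 CPM in WT, 0.131 to 0.803 CPM in Y665F and 0.328 to 93.4 CPM in Y665H females. The 15 muscle genes summed to 149 to 1284 CPM in WT, 72.0 to 189 CPM in Y665F and 67.0 to 2272 CPM in Y665H females, with 0 of 15 called in either mutant against WT and 10 called higher in Y665H than in Y665F. All 15 were lower in Y665F than in WT, with a median log2 fold change of -3.68 and edgeR adjusted p of at least 0.0512. In Y665H 13 were higher than in WT and 2 lower, with a median of 0.72. Fits with the mean log2 level of each list as a covariate are given with the counts below. Y665H female 1 had the lowest muscle sum of all 12 female libraries (67.0 CPM) and the highest sums of adipocyte (29644 CPM) and oxidation genes (7378 CPM), with 314 CPM of thermogenic genes. Y665H female 3 had the lowest thermogenic sum of its group (122 CPM), the highest muscle sum of all 12 female libraries (2272 CPM) and 6487 CPM of oxidation genes. Y665H female 4 had 141 CPM of thermogenic genes, within the WT range and above every Y665F female, and 687 CPM of muscle genes, also within the WT range. It had 5732 CPM of oxidation genes, above all 4 WT and all 4 Y665F females. Its Ucp1 was at 0.328 CPM, within the Y665F range, while its Cox8b (22.5 CPM) and Cidea (11.6 CPM) lay above the highest Y665F library (4.72 and 2.86 CPM). Ucp1 of Y665H female 3 (0.725 CPM) was within the Y665F range too, and Y665H females 1 and 2 were at 18.3 and 93.4 CPM.

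**Figure D2:**
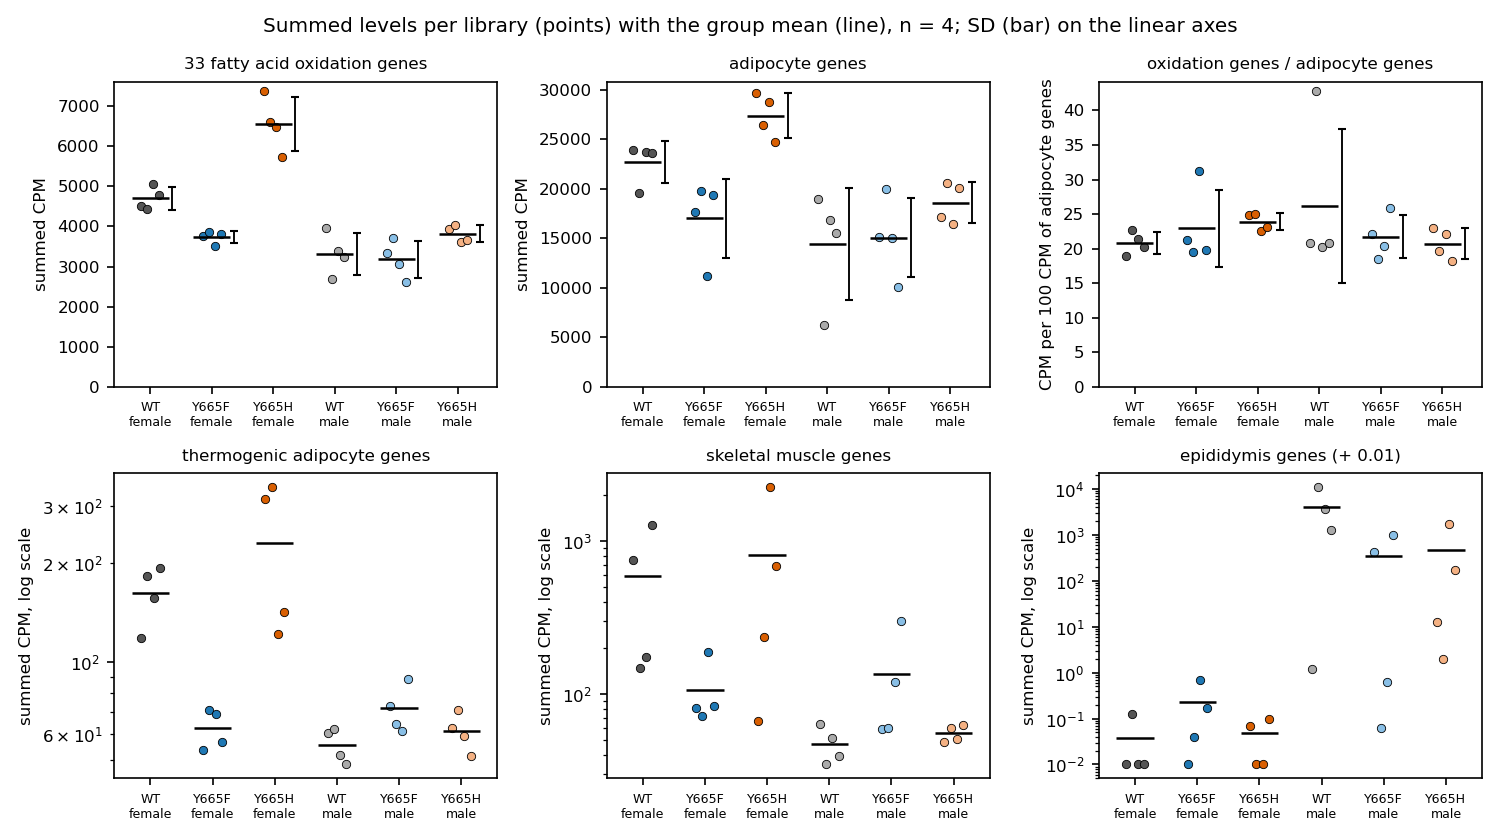
Summed levels per library (points) with the group mean (line, n = 4) and, on the linear axes, the SD (bar), for the 33 oxidation genes, for 12 adipocyte, 12 thermogenic, 15 muscle and 8 epididymis genes, and for the oxidation genes per 100 CPM of adipocyte genes. The oxidation genes separate the 3 female groups (3504 to 3855, 4429 to 5066 and 5732 to 7378 CPM), while their ratio to adipocyte genes does not, and epididymis genes reach 11112 CPM in 1 WT male library.

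The widest separation was between the 2 mutants in females. Of the 32 genes, 23 were higher in Y665H than in Y665F females at an edgeR adjusted p under 0.05 (termed called) and none was lower, while 8.77% of all 15493 tested genes were called higher and 8.59% lower. The 4 Y665H libraries lay above the 4 Y665F libraries for 22 genes, against 13.3% of all genes. The median log2 fold change was 0.83 over the 32 genes and -0.03 over all genes tested. Scaled by library totals these were 0.68 and -0.18, 19 members were called, and the split of all calls went from 1358 higher and 1331 lower to 799 and 2406. Members of every step rose: 3 of 4 genes of the carnitine shuttle, 5 of 6 dehydrogenases, 4 of 5 genes of the later steps, 4 of 5 double bond enzymes, all 3 genes of the electron transfer flavoprotein, 2 of 5 peroxisomal genes and 2 of 4 regulators and thioesterases. The 9 genes that were not called were Cpt1a, Acads, Acaa2, Decr2, Acaa1a, Acaa1b, Acox3, Acot1 and Acot2, with adjusted p from 0.0545 to 0.741. When single libraries were left out, 20 to 25 genes were called. With the thermogenic genes as a covariate 1 member, Etfdh, was called (82 over all genes, against 2689 without it). With the muscle genes 22 were called (1630 over all genes), and with the adipocyte genes 18 (1539). The mean log2 level of the thermogenic genes did not overlap between Y665F (1.47 to 2.03) and Y665H females (2.47 to 3.85). The thermogenic fit therefore cannot separate that level from genotype. Log2 fold changes with the thermogenic covariate were 1.74 for Ehhadh, 0.89 for Etfdh and 0.62 for Hadhb, and fell to 0.20 for Ppara and 0.11 for Pdk4.

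Against WT, the mutants lay on opposite sides in females. In Y665F females 7 of the 32 genes were called lower and none higher (1.02% of 15642 tested genes were called lower and 2.31% higher), with a median log2 fold change of -0.25 over the 32 genes and 0.02 over all genes. Scaled by library totals, which moved the median of all genes to 0.15, 4 genes were called, 23 of 32 rather than 28 were lower, and the split of all calls went from 361 higher and 160 lower to 1025 and 139. The 4 Y665F libraries lay below the 4 WT libraries for 14 genes, against 7.69% of all genes. This count rested on single libraries. Leaving out WT females 1, 2, 3 and 4 in turn gave 2, 1, 2 and 0 called genes, and leaving out Y665F females 1, 2, 3 and 4 gave 0, 2, 10 and 1. It was 0 with the muscle or the thermogenic genes as a covariate, when no gene at all was called. With the adipocyte genes it was 2 (428 over all genes, against 521 without a covariate). The mean log2 level of the thermogenic genes did not overlap between WT (2.52 to 3.11) and Y665F females (1.47 to 2.03). The thermogenic fit therefore cannot separate that level from genotype. The log2 fold changes of the 7 genes were -1.12 (Cpt2) to -0.52 (Hadha) with the muscle covariate and -1.07 (Crat) to -0.12 (Hadha) with the thermogenic one.

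In Y665H females 11 of the 32 genes were called higher than in WT and none lower (1.53% of 15469 tested genes were called higher and 1.80% lower), with a median log2 fold change of 0.47 over the 32 genes and -0.00 over all genes. The 4 Y665H libraries lay above the 4 WT libraries for 17 genes, against 7.56% of all genes. The count was 11 with the muscle genes as a covariate (497 over all genes, against 516 without one), 11 with the thermogenic genes (701) and 8 with the adipocyte genes (336). This count too rested on single libraries. Leaving out WT females 1, 3 and 4 gave 0, 14 and 0 called genes. Leaving out Y665H females 1, 2, 3 and 4 gave 1, 6, 2 and 7. Over all 8 such fits, that without WT female 2 among them, the count was 0 to 14. Single genes called in Y665F against WT lost their call in 4 (Cpt2) to 7 (Hadha, Hadh and Ehhadh) of 8 such fits. Those called in Y665H against WT lost it in 2 (Ehhadh) to 7 (Acadvl). These limits hold for the calls against WT named below. Both contrasts with WT share the 4 WT libraries, so they are not independent of each other.

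**Figure D3:**
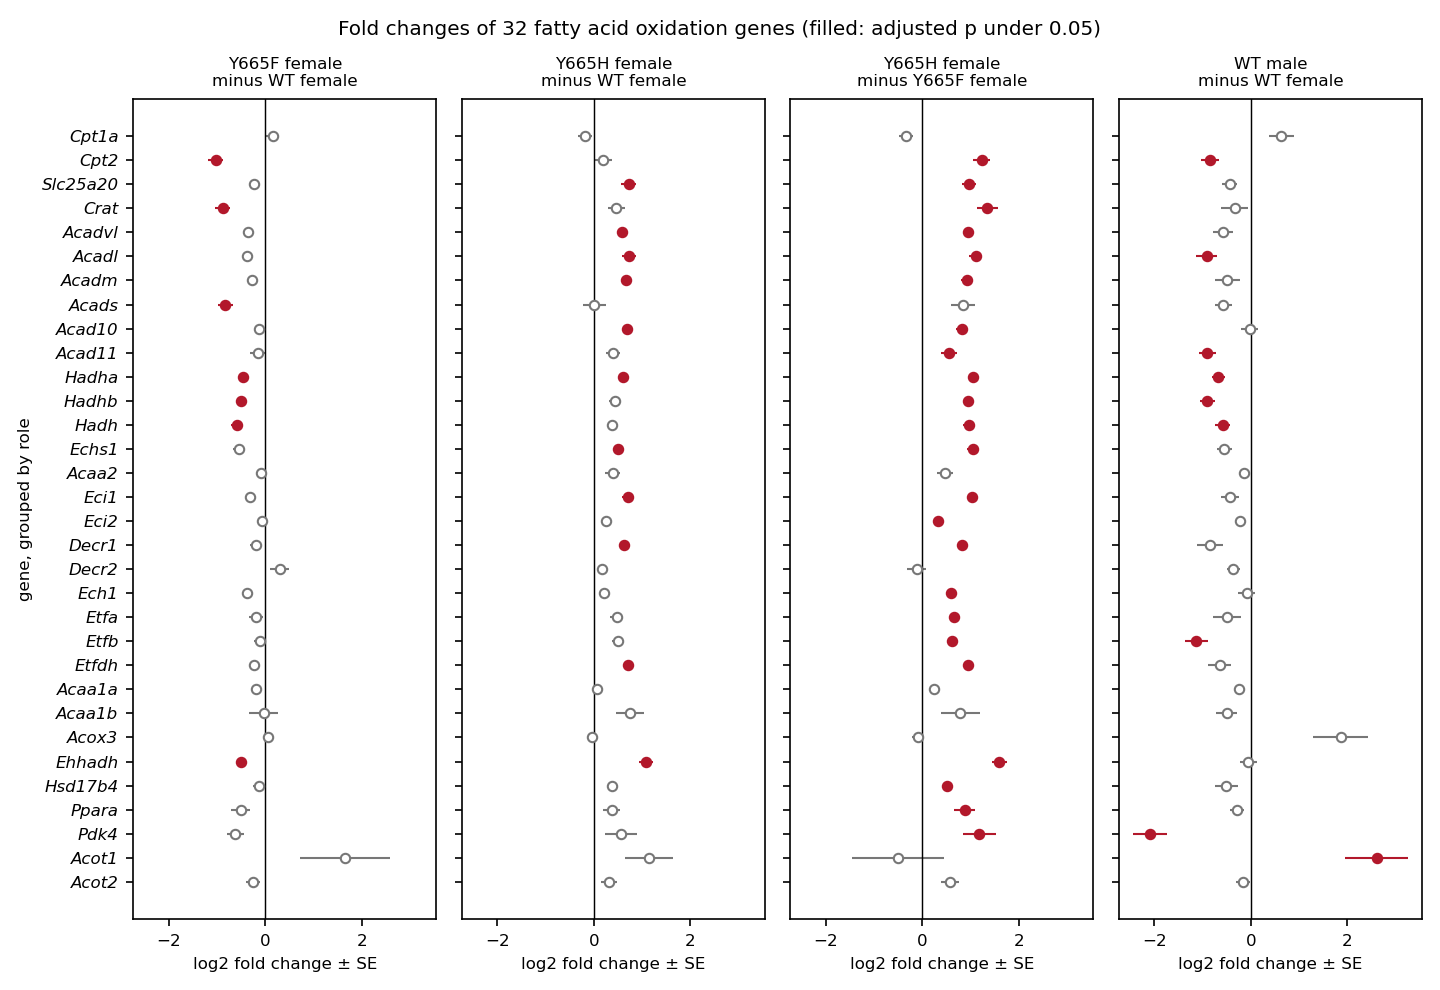
Log2 fold change (point) and SE (bar) of the 32 tested genes in 3 female contrasts and in WT males against WT females, on a common axis, with filled points for an edgeR adjusted p under 0.05. Filled points number 7 (all lower), 11 (all higher), 23 (all higher) and 9 (8 lower, 1 higher) from left to right.

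In the carnitine shuttle, the enzyme that returns acyl groups to CoA inside the mitochondrion, Cpt2, showed the largest called fall. It was at 93.3, 133, 94.4 and 114 CPM in WT females, at 44.2, 64.9, 45.4 and 57.3 CPM in Y665F females and at 153, 142, 109 and 93.8 CPM in Y665H females. Y665F lay below both other groups with no overlap, and Y665H overlapped WT. The log2 fold change was -1.03 (SE 0.16, edgeR adjusted p 0.0201) for Y665F against WT, 0.20 (SE 0.17, adjusted p 0.515) for Y665H against WT, and 1.22 (SE 0.19, adjusted p 0.00447) for Y665H against Y665F. Crat, the carnitine transferase for short chains, fell from 191 to 232 CPM in WT to 87.4 to 145 CPM in Y665F females (-0.89, SE 0.16, adjusted p 0.028). Slc25a20, the carrier that swaps acylcarnitine for carnitine across the inner membrane, rose from 46.6 to 59.9 CPM in WT to 67.6 to 114 CPM in Y665H females (0.72, SE 0.16, adjusted p 0.0445). Cpt1a, the first and rate-limiting enzyme of the shuttle, differed in sign from the other 3. It was at 112, 83.8, 89.7 and 112 CPM in WT, 115, 104, 130 and 91.7 CPM in Y665F and 95.1, 103, 86.1 and 65.9 CPM in Y665H females, with overlap between all groups. Its log2 fold change was 0.15 (SE 0.14, adjusted p 0.502) in Y665F and -0.19 (SE 0.15, adjusted p 0.473) in Y665H females against WT, and -0.34 (SE 0.15, adjusted p 0.154) between the mutants.

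Among the acyl-CoA dehydrogenases, which catalyse the first step for successive chain lengths, Acadvl, Acadl, Acadm and Acad10 rose in Y665H females and Acads fell in Y665F females. Acadm, for medium chains, was at 292, 269, 328 and 302 CPM in WT, 278, 247, 203 and 254 CPM in Y665F and 520, 468, 486 and 410 CPM in Y665H females. Every Y665H library exceeded every other female library. The log2 fold change was 0.66 (SE 0.10, adjusted p 0.019) for Y665H against WT and 0.93 (SE 0.12, adjusted p 0.00246) against Y665F. Acadl, for long chains, was at 231 to 272 CPM in WT, 187 to 205 CPM in Y665F and 322 to 512 CPM in Y665H females, 3 ranges without overlap. It rose in Y665H against WT (0.73, SE 0.14, adjusted p 0.0331), and in Y665F its adjusted p was 0.0512 (-0.38, SE 0.09). Acadvl, for very long chains, rose by 0.59 (SE 0.12, adjusted p 0.0379) and the family member Acad10 by 0.69 (SE 0.12, adjusted p 0.0244) in Y665H against WT. Of Acadvl's exonic bases 42.9% overlap Dvl2 on the other strand, and the strand setting of the counting is not given in the sources used here. Acads, for short chains, differed from these: 108, 136, 89.9 and 120 CPM in WT, 62.6, 79.3, 51.4 and 61.6 CPM in Y665F, and 156, 141, 93.4 and 68.8 CPM in Y665H females. It fell in Y665F (-0.83, SE 0.16, adjusted p 0.034), and Y665H spread across the WT range (0.01, SE 0.24, adjusted p 0.983).

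Of the 5 genes of the later mitochondrial steps, 3 were called lower in Y665F females and 2 higher in Y665H females, with Hadha in both sets. Hadha was at 271, 320, 340 and 312 CPM in WT, 209, 230, 242 and 222 CPM in Y665F and 542, 497, 429 and 424 CPM in Y665H females. The 3 groups did not overlap. Its log2 fold change was -0.45 (SE 0.09, adjusted p 0.0399) in Y665F and 0.60 (SE 0.11, adjusted p 0.0304) in Y665H against WT, and 1.06 (SE 0.10, adjusted p 0.00148) between the mutants. Hadhb, its head-to-head neighbour, was at 143 to 204 CPM in WT, 117 to 124 CPM in Y665F and 201 to 264 CPM in Y665H females. It fell in Y665F (-0.51, SE 0.10, adjusted p 0.0389), and in Y665H its adjusted p was 0.0923 (0.43, SE 0.13). Hadh, the hydroxyacyl-CoA dehydrogenase for shorter chains, fell in Y665F (-0.59, SE 0.12, adjusted p 0.0423) and had an adjusted p of 0.0634 in Y665H (0.38, SE 0.10). Echs1, the short chain hydratase, rose in Y665H (0.51, SE 0.10, adjusted p 0.0351) and had an adjusted p of 0.056 in Y665F (-0.54, SE 0.13). Acaa2, the thiolase of the last step, was not called in any female contrast.

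Of the 5 enzymes that handle double bonds in unsaturated chains, 2 were called higher in Y665H females than in WT. Eci1, an enoyl-CoA isomerase, rose from 83.8 to 107 CPM in WT to 139 to 191 CPM in Y665H females (0.70, SE 0.12, adjusted p 0.0244), and Y665F females were at 76.7 to 79.1 CPM. Decr1, the mitochondrial dienoyl-CoA reductase, rose from 168 to 239 CPM to 290 to 321 CPM (0.63, SE 0.11, adjusted p 0.0269), with Y665F females at 156 to 179 CPM. Between the mutants the log2 fold change was 1.02 (SE 0.10) for Eci1 and 0.82 (SE 0.08) for Decr1, each at an adjusted p of 0.00148. Eci2, a further isomerase (0.26, adjusted p 0.1002), and Ech1, which shifts conjugated double bonds (0.21, adjusted p 0.252), were not called in Y665H against WT. Decr2, the peroxisomal reductase, had log2 fold changes of -0.12 to 0.29 in the 3 female contrasts, none called.

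The electron transfer flavoprotein genes were highest in Y665H females, and none was called between WT and Y665F. Etfdh (chr3:79603788-79629500, minus strand) was at 127, 112, 153 and 130 CPM in WT, 113, 110, 110 and 109 CPM in Y665F and 232, 208, 208 and 208 CPM in Y665H females. Y665H lay above both other groups without overlap, and the lowest WT library lay within the Y665F range. Its log2 fold change was 0.71 (SE 0.10, adjusted p 0.0165) in Y665H and -0.24 (SE 0.09, adjusted p 0.164) in Y665F against WT. Between the mutants it was 0.95 (SE 0.06, adjusted p 0.00105), the smallest p of the 32 genes. Etfa was at 234, 176, 276 and 223 CPM in WT, 203, 203, 165 and 219 CPM in Y665F and 310, 286, 349 and 317 CPM in Y665H females. Etfb was at 267, 210, 306 and 266 CPM, 249, 243, 226 and 242 CPM, and 381, 344, 380 and 374 CPM in the same order. For both genes every Y665H library exceeded every other female library. Y665F lay within the WT range for Etfb and overlapped it for Etfa. Against WT neither was called in Y665H (Etfa 0.47, SE 0.14, adjusted p 0.087, and Etfb 0.49, SE 0.12, adjusted p 0.0541) or in Y665F (Etfa -0.19, SE 0.15, adjusted p 0.421, and Etfb -0.12, SE 0.12, adjusted p 0.534). Between the mutants both were called (0.66, SE 0.11, adjusted p 0.0058, and 0.61, SE 0.07, adjusted p 0.00216).

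**Figure D4:**
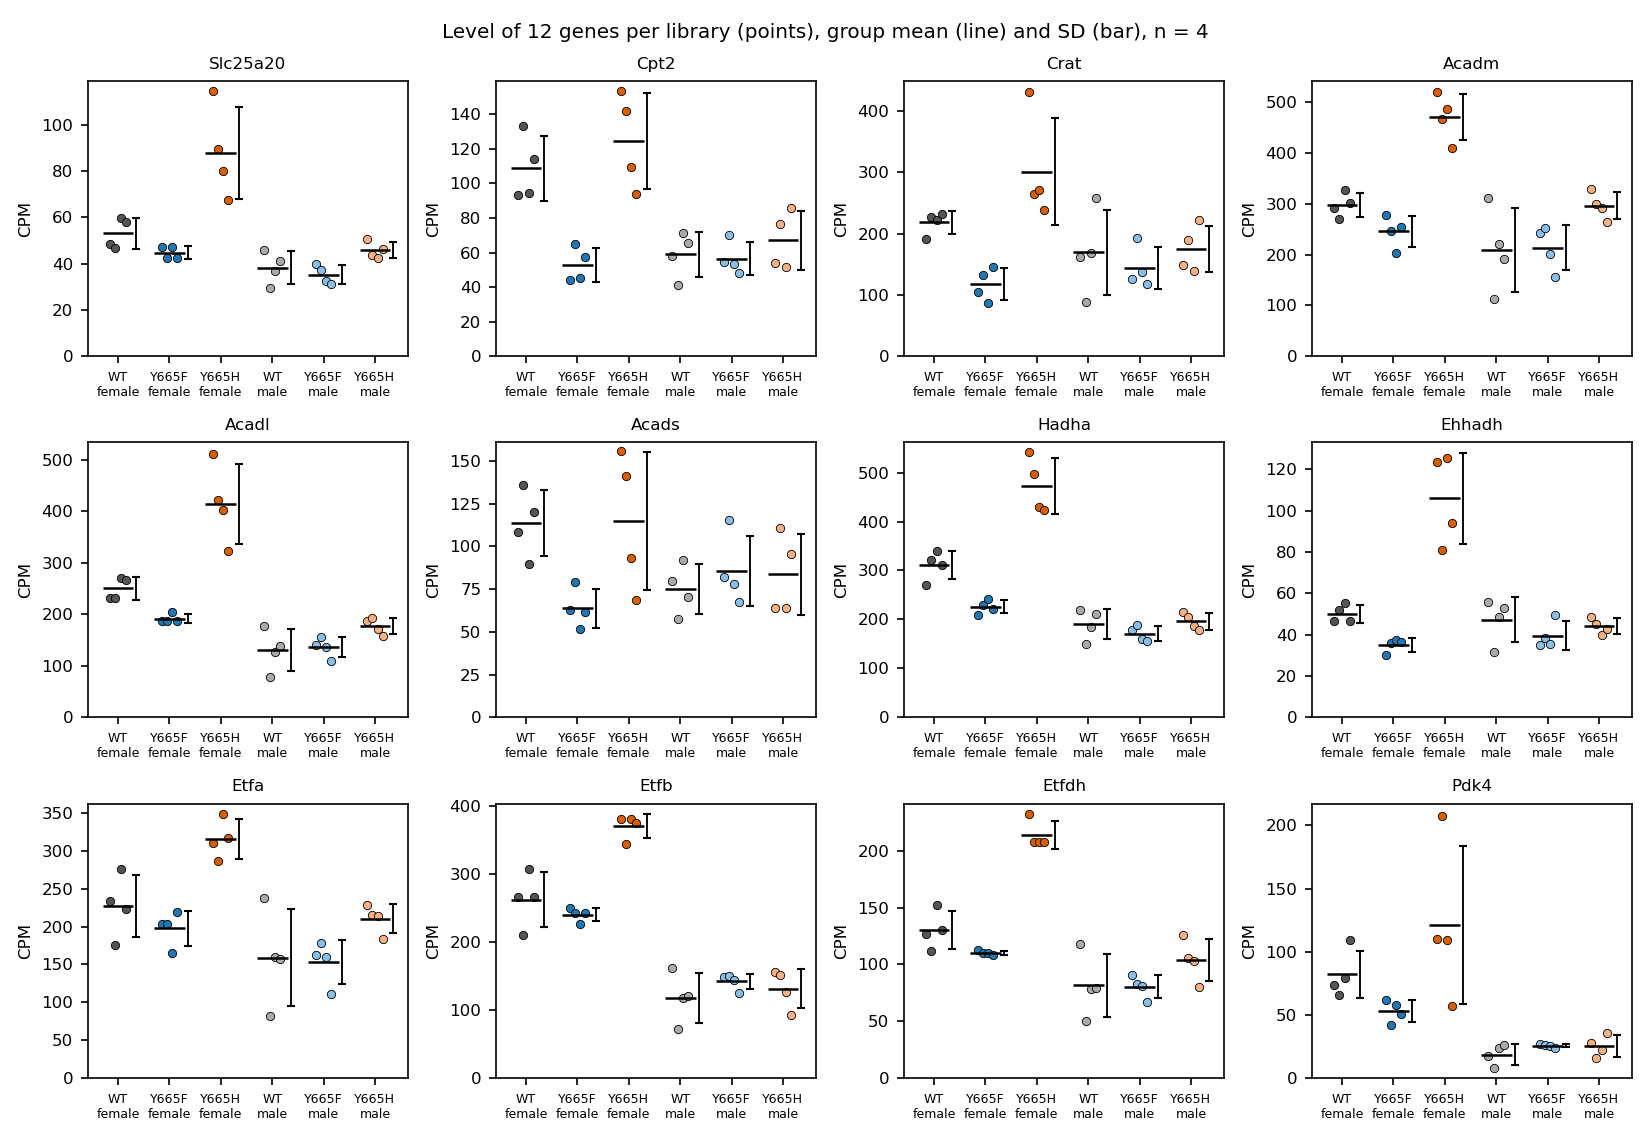
CPM of 12 genes in every library (points), with the group mean (line) and SD (bar, n = 4), on axes that start at 0. For Etfdh the 4 Y665H female points sit between 208 and 232 CPM, above all others, and for Pdk4 all 12 male points (7.86 to 36.1 CPM) sit below all 12 female points (42.0 to 207 CPM).

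In the peroxisomal cycle Ehhadh, the bifunctional enzyme, had the largest called rise of all members in Y665H females. It was at 46.3, 52.1, 55.3 and 46.4 CPM in WT, 30.01, 36.04, 37.5 and 36.4 CPM in Y665F and 123, 80.7, 126 and 94.0 CPM in Y665H females, again without overlap. Its log2 fold change was 1.08 (SE 0.15, adjusted p 0.0141) in Y665H and -0.51 (SE 0.09, adjusted p 0.0302) in Y665F against WT, and 1.59 (SE 0.16, adjusted p 0.00148) between the mutants. The other 4 genes of this group (Hsd17b4, Acaa1a, Acaa1b and Acox3) were not called against WT in females, with adjusted p of at least 0.104. Acox3, a peroxisomal oxidase, was at 37.1 to 53.1 CPM in all 12 female libraries and at 44.1, 380, 146 and 98.0 CPM in WT males. The 3 WT males with Acox3 at 98.0 CPM or more were those with 1260 to 11112 CPM of epididymis genes, and WT male 1, with 1.16 CPM of them, was within the female range. Mutant males had Acox3 at 55.4 to 58.9 CPM in Y665F, with up to 992 CPM of epididymis genes. In Y665H males it was at 49.8 to 93.6 CPM, with up to 1706 CPM of epididymis genes. The part of epididymal RNA in these levels was not tested.

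Ppara, the nuclear receptor that induces the pathway, was at 18.1, 23.4, 26.4 and 24.0 CPM in WT, 12.4, 14.0, 22.6 and 15.1 CPM in Y665F and 37.4, 31.4, 28.3 and 21.6 CPM in Y665H females. All 3 groups overlapped their neighbours. It was called only between the mutants (0.88, SE 0.22, adjusted p 0.0286), and in 6 of the 8 fits without 1 library it was no longer called. Pdk4, a kinase that shuts off pyruvate dehydrogenase when fatty acids are burned, was at 74.0, 66.1, 79.2 and 109 CPM in WT, 61.6, 42.0, 58.1 and 50.5 CPM in Y665F and 110, 207, 110 and 57.2 CPM in Y665H females. Y665F lay below WT, and Y665H spread over both. It too was called only between the mutants (1.18, SE 0.34, adjusted p 0.0457) and was lost in 7 of 8 such fits. Against WT, Ppara had adjusted p of 0.152 (Y665F, -0.51) and 0.226 (Y665H, 0.37), and Pdk4 0.0882 (-0.62) and 0.332 (0.56). The thioesterases Acot1 and Acot2, which release free fatty acids from CoA, were called in no female contrast.

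WT males had lower levels than WT females for 29 of 32 genes, with 8 called lower (5.95% of 15865 tested genes) and 1 called higher (7.15%). The 4 male libraries lay below the 4 female ones for 15 genes, against 11.7% of all genes, and the median log2 fold change was -0.49 over the 32 genes and 0.04 over all genes. Scaled by library totals the median of all genes was 0.22, 24 of the 32 genes were lower (7 called lower, 2 higher), and all calls went from 1135 higher and 944 lower to 2111 and 674. Pdk4 differed most among the lower genes: it was at 17.3, 7.86, 23.7 and 26.3 CPM in WT males (log2 fold change -2.10, SE 0.36, adjusted p 0.0138). Etfb was at 161, 71.9, 118 and 120 CPM in WT males (-1.13, SE 0.23, adjusted p 0.0227), below every WT female. Etfa (-0.49, SE 0.29, adjusted p 0.263) and Etfdh (-0.65, SE 0.23, adjusted p 0.0905) were not called. Hadhb (-0.90), Acad11 (-0.90), Acadl (-0.92), Cpt2 (-0.85), Hadha (-0.67) and Hadh (-0.58) were also called lower, with adjusted p from 0.0161 to 0.0411. Acot1 was called higher (2.60, SE 0.65, adjusted p 0.0382), at 2.33, 19.0, 7.20 and 5.45 CPM in WT males against 0.768 to 2.37 CPM in WT females, so that the groups just overlapped, and its highest library was again WT male 2. Cpt1a was at 144, 233, 120 and 105 CPM in WT males (0.63, SE 0.25, adjusted p 0.122), and Ppara had -0.29 (SE 0.14, adjusted p 0.19).

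Tissue markers differed between WT males and females too. In WT males 7 of 9 tested thermogenic genes and 11 of 15 muscle genes were called lower than in WT females. Of the 12 adipocyte genes 11 were lower, with a median log2 fold change of -0.72, and 0 were called. Per 100 CPM of adipocyte genes, the oxidation genes were at 20.8, 20.2 and 20.8 CPM in WT males 1, 3 and 4. These lay within the range of WT females (18.9 to 22.7 CPM), and WT male 2 was at 42.8 CPM. The count of oxidation genes called was 0 with the muscle, thermogenic, epididymis or adipocyte genes as a covariate, when 125, 1, 90 and 363 genes were called in all, against 2079 without one. In these 4 fits Etfb had log2 fold changes of -1.08, -0.85, -0.60 and -0.71, and Pdk4 of -1.80, -0.36, -1.79 and -1.50. Leaving out WT females 1, 2, 3 and 4 in turn gave 1, 2, 1 and 0 called genes. Leaving out WT male 3 gave 2, and leaving out WT male 1 gave 18. The fits without WT males 2 and 4 are not listed singly, and over all 8 fits the count was 0 to 18. How many genes were called without WT male 2, the epididymis-rich library, is thus not shown here. Over the 8 fits, that one included, log2 fold changes ran from -2.32 to -1.84 for Pdk4, -1.30 to -0.96 for Etfb and 1.82 to 2.93 for Acot1. Sex and tissue makeup cannot be told apart in these libraries. Pdk4 stayed apart by sex in every genotype, at 24.1 to 27.3 CPM in Y665F males and 16.4 to 36.1 CPM in Y665H males, below all 12 female libraries.

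In males the mutations gave no called member. Against WT males, 0 of 32 genes were called in Y665F (0% of 16240 tested genes) and 0 in Y665H (0% of 16406). At an unadjusted p under 0.05 there were 1 and 2 members (3.12% and 6.25%), against 17.1% and 11.4% of all genes. The median log2 fold change was -0.04 in Y665F, with 15 genes higher and 17 lower, and 0.17 in Y665H, with 26 higher and 6 lower, against -0.04 and -0.05 over all genes. Between Y665H and Y665F males 25 of 32 genes were higher, the median was 0.20 against -0.02 over all genes, and 0 members were called, with 0.125% of 15986 genes called higher, 0.901% lower and 10 members (31.2%) at an unadjusted p under 0.05, against 18% of all genes. The DESeq2 Wald test called 0, 0 and 1 members in these 3 contrasts. The 4 Y665H males lay above the 4 Y665F males for 5 genes, against 5.84% of all genes. Etfdh was at 118, 50.2, 78.7 and 79.6 CPM in WT, 90.6, 82.9, 81.5 and 67.0 CPM in Y665F and 126, 106, 103 and 80.1 CPM in Y665H males. All 3 groups overlapped, and the spread was widest in WT, from WT male 2 at 50.2 CPM to WT male 1 at 118 CPM. The log2 fold changes against WT were -0.03 (SE 0.23) in Y665F and 0.32 (SE 0.25) in Y665H for Etfdh, -0.06 (SE 0.30) and 0.38 (SE 0.28) for Etfa, 0.26 (SE 0.22) and 0.13 (SE 0.25) for Etfb, and -0.26 (SE 0.24) and -0.10 (SE 0.23) for Cpt1a. Ppara had 0.06 (SE 0.16) and 0.26 (SE 0.12) and Pdk4 0.44 (SE 0.34) and 0.41 (SE 0.39). Between Y665H and Y665F males the values were 0.34 (SE 0.14) for Etfdh, 0.43 (SE 0.14) for Etfa, -0.14 (SE 0.16) for Etfb, 0.15 (SE 0.11) for Cpt1a, 0.19 (SE 0.15) for Ppara and -0.03 (SE 0.22) for Pdk4.

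Whether the sexes differed in the effect of a mutation was tested as an interaction, coded as the male effect minus the female effect. No member was called for Y665F (0% of 16732 genes) or for Y665H (0.0119% of 16827 genes). At an unadjusted p under 0.05 there were 6 and 7 members (18.8% and 21.9%), near the 21.8% and 18.3% of all genes. For Y665H, Ehhadh came closest (-1.20, SE 0.24, adjusted p 0.0677): it was at 31.6 to 55.8 CPM in WT males and 39.9 to 48.7 CPM in Y665H males, against the rise in females given above. Acad10 followed (-0.99, SE 0.21, adjusted p 0.0684). The DESeq2 Wald test called 2 members for Y665F and 3 for Y665H. For Y665F the lowest adjusted p was 0.126, for Acads (1.01, SE 0.26). In the reported fit, edgeR thus showed for no member that Y665H acted unlike in males and females. Other edgeR fits of the Y665H interaction did call members: 1 with library totals, 1 with the adipocyte covariate and 0 to 3 without 1 library.

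Other genes of the pathway, from lists chosen by function, moved most between the mutants in females, where 8.77% of all genes were called higher. Of 13 tested PPAR regulators and targets 6 were called higher in Y665H than in Y665F females, among them the coactivator Ppargc1b (0.71, SE 0.11), the lipid droplet protein Plin2 (0.62, SE 0.13) and Ucp3, an uncoupling protein of muscle (1.58, SE 0.33). Of 8 further dehydrogenases that feed the flavoprotein 6 were called higher, with Acad8 (0.38, SE 0.05), Acadsb (0.99, SE 0.15) and Acad9 (0.32, SE 0.06) at the smallest p. Of 14 other peroxisomal genes 11 were called higher, led by Hacl1 (0.93, SE 0.14), Pex11a (1.19, SE 0.19) and Scp2 (0.83, SE 0.14). Pyruvate entry moved as widely: of 12 genes 9 were called higher, led by the kinase Pdk1 (1.33, SE 0.17), the phosphatase Pdp2 (0.86, SE 0.11) and Pdhx of the dehydrogenase complex (1.05, SE 0.14), and the kinase Pdk3 was lower (-0.91, SE 0.18). Of 13 genes of acyl-CoA formation and carnitine handling 4 were called higher. Acacb, whose product malonyl-CoA inhibits the Cpt1 enzymes, was the first of these (2.57, SE 0.30, adjusted p 0.00212), at 648 to 1421 CPM in Y665H against 120 to 244 CPM in Y665F females. The fatty acid transporter Slc27a1 (1.58, SE 0.24) and Mlycd, which breaks down malonyl-CoA (0.63, SE 0.11), rose as well. Of 6 ketone body genes 2 were called higher (Acat1 0.82, SE 0.10, and Oxct1 0.52, SE 0.15), and of 7 other thioesterases 3 (Acot3 4.25, SE 0.74, Acot4 1.34, SE 0.25, and Acot13 0.44, SE 0.10). The edgeR adjusted p of the genes named here was at most 0.0439.

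Against WT fewer genes of these lists passed, and 1.02% of all genes were called lower in Y665F and 1.53% higher in Y665H females. In Y665F females Acacb (-1.39, SE 0.30, adjusted p 0.0467) and the lipid droplet protein Plin5 (-1.17, SE 0.16, adjusted p 0.015) were lower, and no other gene of the 7 lists was called. In Y665H females 12 genes were called higher, all with adjusted p of at most 0.0486: Slc27a1 and Acsl1, Acadsb and Acad8, Hacl1 and Pecr, Acat1, Ppargc1b, Pdhx, Pdha1 and Dld, and Acot3. Their log2 fold changes ran from 0.35 (Acad8) to 3.58 (Acot3), and none was called lower. Acot3, a peroxisomal thioesterase, belongs to a cluster of closely similar genes, so its counts are uncertain. In males 1 gene of the lists was called in the 3 contrasts, Acadsb, the dehydrogenase of branched short chains, between Y665H and Y665F (0.57, SE 0.10, adjusted p 0.0465).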

How the data were processed

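Total RNA from adipose tissue was depleted of ribosomal RNA and sequenced as stranded paired-end libraries, per the labels' protocols. The authors deposited raw read counts per gene symbol for each of 24 libraries. The submitters' processing notes name FastQC 0.11.9, Trimmomatic 0.36, STAR, SAMtools 1.9, Picard 2.9.2, HTSeq 0.9.1 and mm10. The annotation and strand setting are not given in the sources used here. The 5 entries that name no gene, 24.8 to 39.7% of counts per library, were left out.

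Counts were tested with edgeR 4.0.16 (TMM scaling, its filter on low counts, quasi-likelihood F test, Benjamini-Hochberg adjustment over all tested genes, threshold 0.05) in R 4.3.3, in 7 contrasts of 8 libraries each and 2 interactions of 16, and the code was tested on simulated data. Alternatives were other scalings, no filter, DESeq2 1.42.0, a fit over 24 libraries, a replicate block, marker covariates and leaving out each library. CPM used TMM factors over 24 libraries, and 3 counts correspond to 0.0726 to 0.143 CPM. Replicates were compared by chi-square, and none agreed within sampling noise.

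The genes and lists were chosen with earlier results of these data known. Named were the called members of each comparison, up to 12 per direction by smallest p, and Cpt1a, Cpt1b, Etfa, Etfb, Etfdh, Ppara and Pdk4 throughout, and up to 3 called genes per other list. Values of named members in further comparisons, of Acox3 and Decr2, and the listed names beyond these limits were chosen after their values were seen.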

Additional observations from a re-analysis of the deposited data

Results flagged for a closer look

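In each group of 4 libraries, the highest and the lowest library of each gene were compared with the rest by Dixon's ratio. Of 198 combinations of gene and group 14 stood apart, and chance gives about 1 in 20.

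Y665F female 3, the library with the most epithelial RNA among females, stood apart for 3 genes. Its Acadl level was the highest of its group (205.0 CPM, others 186.6 to 187.7), its Decr1 level the lowest (156 CPM, others 176 to 179) and its Decr2 level the highest (55.9 CPM, others 29.9 to 33.7). The part of epithelial RNA in these levels was not tested.

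Y665H female 1 was the highest of its group for Etfdh (232 CPM, others 207.6 to 207.8), Eci2 (100.6 CPM, others 86.5 to 88.9), Acaa1b (141 CPM, others 50.2 to 64.4) and Acot1 (6.70 CPM, others 1.81 to 2.27). In the same group Y665H female 2 was the lowest for Etfb (344 CPM, others 374 to 381). WT female 2 was the lowest of WT females for Acaa2 (104 CPM, others 116.6 to 117.4).

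In males, Y665H male 2 was the highest of its group for the thiolases Acaa1a (123 CPM, others 90.8 to 93.4) and Acaa1b (58.2 CPM, others 38.1 to 41.2), which share sequence. Y665H male 4 was the lowest for Hsd17b4 (274 CPM, others 381 to 401). Acot2 was highest in WT male 3 (21.3 CPM, others 15.6 to 16.3) and in Y665F male 2 (26.5 CPM, others 17.5 to 18.4).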

How the results depend on the processing

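Counts of called members depended on the setting. For Y665F against WT females (7) they were 4 with library totals and over 24 libraries, 13 with DESeq2, 0 with the muscle or thermogenic covariate, 2 with the adipocyte covariate and 0 to 10 without 1 library. For Y665H against WT females (11) they were 17 with DESeq2, 7 over 24 libraries and 0 to 14 without 1 library. For Y665H against Y665F females (23) the thermogenic covariate left 1, other settings 18 to 27, and leaving out 1 library 20 to 25. For WT males against females (9) they were 17 with DESeq2, 18 over 24 libraries, 0 with each covariate and 0 to 18 without 1 library. Counts of 0 became 1 over 24 libraries (Y665F males), 1 with DESeq2 (Y665H against Y665F males), 2 with DESeq2 (Y665F interaction, 0 to 4 without 1 library), and 1 with library totals, 3 with DESeq2, 2 over 24 libraries and 1 with the adipocyte covariate (Y665H interaction, 0 to 3 without 1 library). The cause was not tested. The adipocyte covariate was chosen after seeing the data.

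Same-numbered libraries had correlations of deviations from -0.30 to 0.33 (Y665F against WT females) and from -0.35 to 0.75 (Y665H against Y665F males). No contrast had all pairs over 0.1, and no pairing by number was assumed. Libraries of unlike number were not compared, so this check cannot exclude a pairing. With the number as a replicate block, called members went from 7 to 6 (Y665F against WT females) and 11 to 0 (Y665H against WT females). They went from 23 to 19 between mutant females and from 9 to 4 between WT males and females.

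Log2 fold changes changed sign as follows, none of them called under the alternative. In Y665F females Etfb was 0.012 with library totals, Ppara 0.64 with the thermogenic and Etfa 0.00378 with the adipocyte covariate. In Y665F males Etfdh was 0.00805 unfiltered; Etfa 0.00571 and Etfdh 0.026 with the block; Etfa 0.087, Etfdh 0.066 and Ppara -0.14 with muscle, Etfa 0.065 and Ppara -0.12 with thermogenic, and Etfb -0.019 and Ppara -0.067 with epididymis genes. In Y665H males Cpt1a was 0.00693 with muscle, 0.11 (Etfb -0.12) with thermogenic, 0.25 (Etfb -0.15, Pdk4 -0.059) with adipocyte and 0.093 (Etfb -0.22, Etfdh -0.017) with epididymis genes. Between mutant males Pdk4 was 0.033 with library totals. Between WT sexes Cpt2, called in the reported fit, was 0.036 and Ppara 0.36 with thermogenic, Etfa 0.044 with adipocyte and 0.18 with epididymis genes. In the Y665F interaction Etfa was -0.046 with library totals (members' median 0.09, scaled medians of all genes -0.06 to -0.25), Ppara -0.70 with thermogenic, and Etfa -0.31 and Etfdh -0.076 with adipocyte genes. In the Y665H interaction Pdk4 was 0.15 with thermogenic genes.

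Without 1 library, signs changed for Etfa (-0.25 to 0.18), Etfdh (-0.18 to 0.19), Cpt1a (-0.37 to 0.053) and Ppara (-0.038 to 0.16) in Y665F males, Cpt1a (-0.23 to 0.21) and Etfb (-0.021 to 0.35) in Y665H males, Pdk4 (-0.25 to 0.14) between mutant males, Etfa (-0.078 to 0.39) in the Y665F interaction, and Etfa (-0.29 to 0.19), Ppara (-0.23 to 0.025), Pdk4 (-0.37 to 0.25) and Cpt1a (-0.035 to 0.39) in the Y665H interaction. Between mutant females 13 of 15 named members kept their call in all 8 such fits. Against WT, no called member kept its call in more than 4 of 8 fits in Y665F (Hadha, Hadh and Ehhadh in 1) or in more than 6 in Y665H females (Acadvl in 1).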
